A study of Rattus norvegicus with 24 samples.

Results

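The transcripts described are those of the heterotrimeric G protein subunits and of the regulators of G protein signalling (RGS) in rat dorsal striatum. They were chosen by gene symbol: the numbered or lettered G alpha, G beta and G gamma genes and the numbered Rgs genes, leaving out Gnal and Rgs9. The rule found 41 of the 22523 probes on the array, of which 13793 carry a gene symbol, and these 41 probes stand for 40 of the 13337 named genes because Gnas has a pair of probes. Total RNA from dorsal striatum of male Sprague-Dawley rats was measured on 24 single-colour Illumina RatRef-12 bead arrays, in 4 groups of 6. One group, METH 2 h, self-administered intravenous methamphetamine (METH, a dopamine-releasing stimulant) at 0.1 mg/kg per injection in 15 h sessions for 8 d and was killed 2 h after the last session. A second group, METH 24 h, had the same drug schedule and was killed at 24 h. The other 2 groups are yoked saline rats, whose time of death the labels do not give, 6 hybridised beside METH 2 h on slide 1 and 6 beside METH 24 h on slides 2 and 3. Slides 2 and 3 hold 3 arrays of each of their groups. METH rats were compared only with the saline rats of their own slides.

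A G protein-coupled receptor activates its G protein by making the alpha subunit exchange GDP for GTP, after which alpha and the beta-gamma pair act on enzymes and channels. The s class of alpha subunits stimulates adenylyl cyclase, the i/o class inhibits it or acts through beta-gamma, and the q/11 class activates phospholipase C beta. RGS proteins speed GTP hydrolysis by alpha subunits and so shorten the signal. In striatal projection neurons, D1 dopamine receptors work through the olfactory-type stimulatory alpha subunit and D2 receptors through i/o subunits, and Rgs9 restrains the latter.

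Of the 41 probes, 26 had signal above background (detection p under 0.05) on at least 6 arrays and were tested, and 15 were not. The tested probes were 9 for alpha subunits, 3 for beta, 4 for gamma and 10 for RGS genes. Of the 15 untested probes, 11 were above background on 0 of 24 arrays: Gna13, Gnat1, Gna14, Gnb3, Gnb4, Gng13, Rgs1, Rgs5, Rgs16, Rgs18 and Rgs20. Gna15 and Gnat2 were above background on 1 array each, the second Gnas probe on 3 and Gng8 on 4. Gnat1 and Gnat2 encode the transducins of rods and cones, and Gnb3 the beta subunit of cones. Of the 26 tested probes, 22 were above background on all 24 arrays. Gnai1, Gna11 and Rgs19 missed it on 2, 1 and 1 arrays. The remaining one, the tested probe of Gnas, the stimulatory alpha subunit itself, was above background on 3 saline and 2 METH arrays of slide 1 and on 1 saline and 0 METH arrays of slides 2 and 3. Its level, and that of the second Gnas probe, is therefore poorly measured here.

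**Figure D1:**
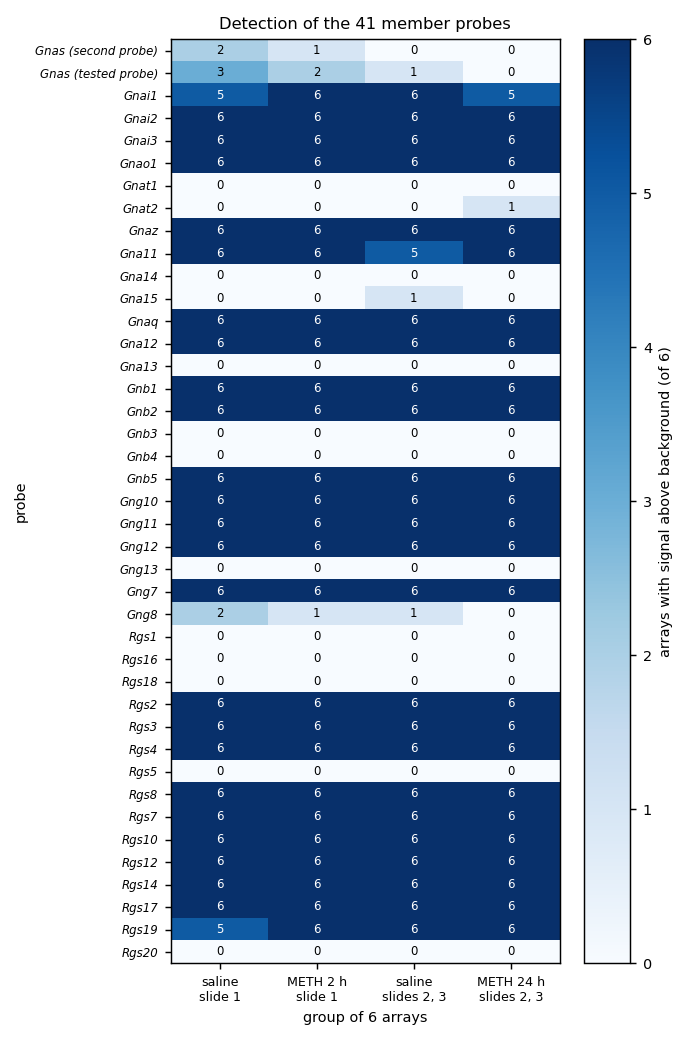
Number of arrays, of 6 in each group, on which each of the 41 probes had signal above background (detection p under 0.05). The probes divide into those above background on nearly every array and those on hardly any, with the tested Gnas probe, on 3, 2, 1 and 0 arrays, between them.

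The study's title concerns transcription driven by phosphorylated CREB, which binds the cyclic AMP response element. Its full palindrome TGACGTCA and the shorter forms TGACG and CGTCA, which are each other read on the opposite strand and are both contained in the palindrome, were therefore searched on both strands in the 250 bases before each gene start in RefSeq's GRCr8 table. That table held 34 such windows for 32 of the 40 genes, 3 of them for Gnas. It has no entry for Gnat1, Gnat2, Gnai2, Gnai3, Gnaz, Gnb3, Gng8 or Rgs20. The palindrome was in 1 of the 34 windows (2.94%), that of Gnao1, against 1.59% of all 33469 windows in the table. A shorter form was in 8 of the 34 (23.5%), against 18.2% of all windows, namely those of Gnao1, Gnaq, Gnb2, Gnb5, Rgs1, Rgs2, Rgs3 and Rgs4. A match describes the letters only and is not evidence of binding. The 4 windows below belong to the one gene with the palindrome, to 2 RGS genes with a shorter form that are known in neurons as activity-responsive (Rgs2 and Rgs4), and to the beta subunit gene of lowest p at 24 h. They are written 5' to 3' on the strand of the gene, with the matches in capitals. Those of Gnao1 (chr19:11198438-11198687), Rgs2 (chr13:58352667-58352916) and Rgs4 (chr13:84475885-84476134) lie on the minus strand and that of Gnb5 (chr8:84956379-84956628) on the plus strand.
Gnao1: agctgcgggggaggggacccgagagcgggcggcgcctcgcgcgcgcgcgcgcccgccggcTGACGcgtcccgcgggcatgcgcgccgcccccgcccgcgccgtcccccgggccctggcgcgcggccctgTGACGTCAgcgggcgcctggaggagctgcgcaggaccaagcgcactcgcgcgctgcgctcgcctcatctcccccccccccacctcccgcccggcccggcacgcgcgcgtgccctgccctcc
Rgs2: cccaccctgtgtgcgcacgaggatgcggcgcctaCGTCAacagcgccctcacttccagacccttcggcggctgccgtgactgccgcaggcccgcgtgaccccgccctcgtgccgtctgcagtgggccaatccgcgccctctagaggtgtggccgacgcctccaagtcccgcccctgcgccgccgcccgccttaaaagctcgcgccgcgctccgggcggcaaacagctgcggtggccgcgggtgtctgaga
Rgs4: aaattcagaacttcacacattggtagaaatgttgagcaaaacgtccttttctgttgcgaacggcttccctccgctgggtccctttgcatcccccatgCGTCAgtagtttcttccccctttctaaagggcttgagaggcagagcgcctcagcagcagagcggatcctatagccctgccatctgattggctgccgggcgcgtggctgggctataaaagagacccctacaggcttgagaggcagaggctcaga
Gnb5: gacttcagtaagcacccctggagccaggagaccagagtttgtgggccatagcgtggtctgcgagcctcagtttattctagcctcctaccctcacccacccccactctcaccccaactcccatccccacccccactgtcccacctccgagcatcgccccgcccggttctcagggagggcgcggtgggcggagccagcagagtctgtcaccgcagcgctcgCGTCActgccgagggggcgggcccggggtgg
The palindrome of Gnao1 begins 121 bases before the gene start. The shorter form of Rgs4 begins 153 bases before it, that of Rgs2 216 and that of Gnb5 31.

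The arrays as a whole set the precision of what follows. Between 8208 and 9428 probes were above background on the arrays of slide 1 and between 9375 and 10306 on those of slides 2 and 3. The median residual SD of a tested probe was 0.250 on slide 1 and 0.175 on slides 2 and 3 (log2 units), and the arrays of slide 1 were given less weight. Striatal projection neuron markers had a mean log2 level between 10.15 and 10.70 on every array, with Ppp1r1b and Rgs9 among the genes with signal on all of them. For the cortical excitatory neuron markers on slide 1, the mean over 8 genes was 6.33 ± 0.37 (SD, n = 6; 6.01 to 6.95) in saline and 6.91 ± 0.42 (6.42 to 7.47) in METH 2 h rats. Of these markers, 5 of 8 had an unadjusted p under 0.05, each higher after METH, against 6.09% of all tested probes. None of the 8 was past the limma adjusted threshold. On slides 2 and 3 the same mean was 6.29 ± 0.30 and 6.41 ± 0.19. The labels do not say that arrays of a group came from pooled or from separate animals, so the p-values measure the spread between samples.

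At 2 h, no G protein subunit or RGS transcript passed the test. By limma's moderated test with Benjamini-Hochberg adjustment over all 10358 tested probes, 0 of the 26 had an adjusted p under 0.05, and the lowest was 0.626. Over all tested probes 3 (0.029%) passed. At an unadjusted p under 0.05 there were 4 of 26 (15.4%), Gnb1 and Gnaz higher and Rgs4 and Gng12 lower, against 6.09% of all probes. No member had METH arrays wholly apart from the saline arrays, a pattern seen in 0.396% of all probes. The log2 differences, METH minus saline, ran from -0.44 to 0.52, with a median absolute size of 0.164 for the 26 and 0.109 for all tested probes.

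The gene of lowest p at 2 h was Rgs4, of the R4 family, which accelerates GTP hydrolysis by i/o and q subunits. In saline rats its log2 signal had a lowest, median and highest value of 11.21, 11.44 and 11.59, and in METH 2 h rats of 10.26, 11.16 and 11.36. Of the METH arrays, 4 of 6 lay below every saline array, and the 2 lowest, 10.26 and 10.69, stood well below the other 4. The difference was -0.44 ± 0.16 (SE; 95% interval -0.77 to -0.10; unadjusted p = 0.0127 and limma adjusted p = 0.626), which corresponds to a signal 1.35 times as high in saline as in METH rats. Without METH replicates 4 and 6, the METH arrays of lowest weight, it was -0.18, a choice made after seeing the data, and without replicate 6 alone -0.29.

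The other 3 genes of the R4 family that were measured, Rgs2, Rgs3 and Rgs8, were also below 0 at 2 h, between -0.23 and -0.02, none with an unadjusted p under 0.05. Of all tested probes, 51% were below 0. Rgs2, which acts preferentially on q subunits, had levels of 10.43, 11.35 and 11.44 in saline and 10.68, 11.28 and 11.43 in METH 2 h rats, in the order lowest, median, highest, so that its groups covered nearly the same range (difference -0.02 ± 0.16, interval -0.36 to 0.31). Rgs8 differed by -0.23 ± 0.16 and Rgs3 by -0.19 ± 0.19. For Rgs3 and Rgs8 alike, the lowest saline array stood apart from the other saline arrays.

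Gnb1 encodes the beta subunit that pairs with many gamma subunits in brain. Its levels in saline rats were 11.05, 11.35 and 11.46 (lowest, median, highest) and in METH 2 h rats 11.46, 11.55 and 11.76. Of the METH arrays, 5 of 6 exceeded every saline array, and the remaining one lay just inside the saline range. The difference was 0.29 ± 0.12 (interval 0.06 to 0.53; unadjusted p = 0.0175, limma adjusted p = 0.686), a 1.22-fold higher mean. Its residual SD on slide 1 stood at the 6.8th percentile of all tested probes, so it is among the more tightly measured transcripts on that slide. On slides 2 and 3 it stood at percentile 32.1. The other measured beta subunits lay on the other side of 0: Gnb2 differed by -0.16 ± 0.15, and Gnb5, the beta subunit that partners R7 RGS proteins, by -0.13 ± 0.14. Each had 3 of 6 METH arrays below every saline array, and Gnb5 also had 1 above every saline array.

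All 4 measured gamma subunits were below 0 at 2 h, as were 51% of all tested probes, with differences from -0.42 to -0.05. Gng12, a gamma subunit found in many tissues, had saline levels of 5.78, 6.34 and 6.80 and METH 2 h levels of 5.58, 5.92 and 6.31. The ranges overlapped in part, with 2 METH arrays below every saline array and the saline median above the highest METH array. The difference was -0.42 ± 0.17 (unadjusted p = 0.0196, limma adjusted p = 0.691), and it was -0.25 without saline replicate 4 and METH replicate 6, the arrays of lowest weight in their groups, chosen after seeing the data. Gng7, the striatum-enriched gamma subunit that assembles with the olfactory-type alpha subunit, differed by -0.14 ± 0.18. Gng10 and Gng11 differed by -0.09 ± 0.13 and -0.05 ± 0.17.

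Among the alpha subunits, 7 of 9 were below 0 at 2 h, against 51% of all tested probes. Gnaz, a pertussis toxin-insensitive member of the i/o class that inhibits adenylyl cyclase, was one of the other 2. Its saline levels were 8.26, 8.66 and 9.04 and its METH 2 h levels 8.65, 8.95 and 9.27. Of the METH arrays, 3 of 6 lay above every saline array and none below. The difference was 0.31 ± 0.15 (interval 0.01 to 0.61; unadjusted p = 0.0432, limma adjusted p = 0.799). Gnai1, also of the i/o class, differed by 0.15 ± 0.34, but it was one of the most scattered probes, at the 98.9th percentile of residual SD. The abundant inhibitory subunits Gnai2 and Gnao1 differed by -0.17 ± 0.14 and -0.15 ± 0.20, and Gnai3 by -0.10 ± 0.11. In the q/11 class Gna11 differed by -0.28 ± 0.24 and Gnaq by -0.05 ± 0.22. Gna12 differed by -0.03 ± 0.32 and Gnas, near background, by -0.19 ± 0.18. None of these 8 had an unadjusted p under 0.05.

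Outside the R4 family, 4 of 6 measured RGS transcripts were above 0 at 2 h and none had an unadjusted p under 0.05. Rgs12, a large multidomain member of the R12 family that acts on i/o subunits, had saline levels of 7.12, 7.61 and 8.40 and METH 2 h levels of 7.57, 8.19 and 8.74. Only the highest METH array exceeded the saline range, and the saline rats alone spanned more than a log2 unit. Its difference of 0.52 ± 0.27 (unadjusted p = 0.0612, limma adjusted p = 0.842) was the largest positive one among the 26. Rgs7, of the R7 family to which Rgs9 belongs, had saline levels of 9.58, 9.69 and 9.89 and METH 2 h levels of 9.54, 9.83 and 10.20, with 2 METH arrays above and 1 below all saline arrays (0.17 ± 0.12, unadjusted p = 0.154, limma adjusted p = 0.914). Without METH replicate 3 the Rgs7 difference was 0.11. Rgs19 and Rgs17, of the RZ family, differed by 0.17 ± 0.17 and 0.06 ± 0.14. Rgs10 and Rgs14, the other R12 members, differed by -0.09 ± 0.11 and -0.18 ± 0.16.

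**Figure D2:**
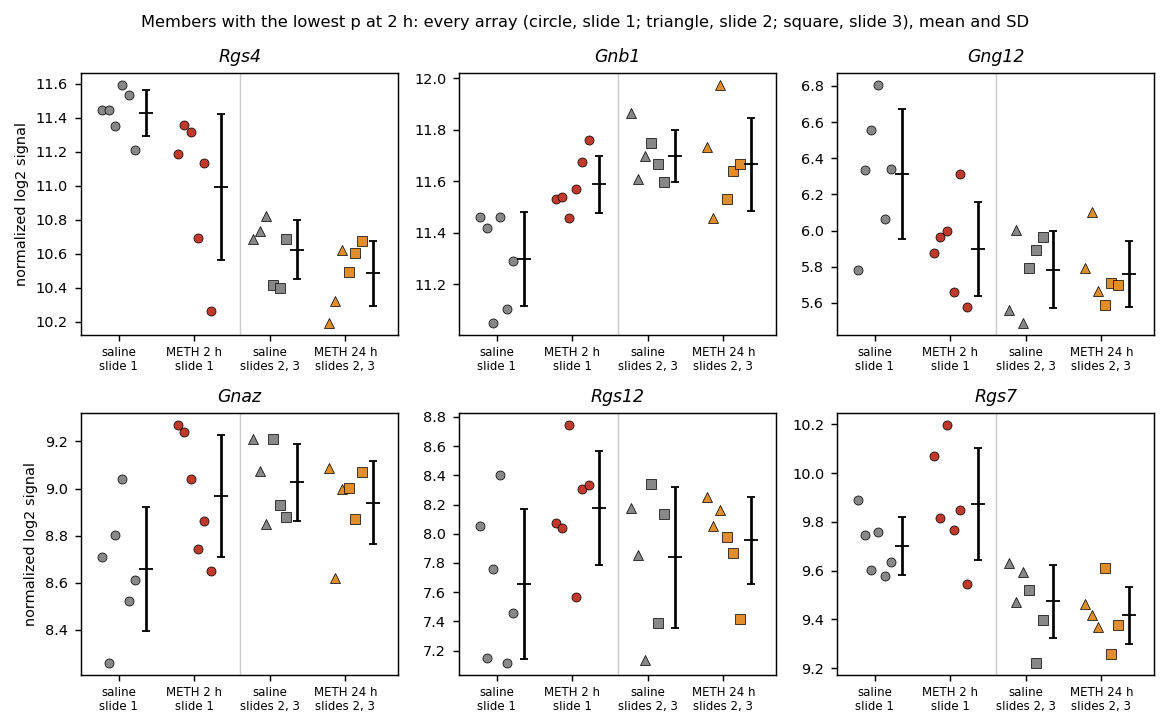
Normalized log2 signal (vertical axis) of the 6 transcripts of lowest p at 2 h on every array, by group, with the mean and SD beside the points. Gnb1 is higher on 5 of 6 METH 2 h arrays than on any saline array of slide 1, and Rgs4 lower on 4 of 6, while the groups of the other 4 genes overlap more.

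The cortical marker mean was given above for the same arrays, where no single marker passed the adjusted threshold. When the mean of the 8 cortical markers was entered as a covariate, the 2 h difference of Rgs12 was -0.02, that of Gnaz 0.08 and that of Rgs7 0.04. Those of Rgs4 and Gng12 were -0.56 and -0.62, and that of Gnb1 was 0.32. With the covariate the adjusted p of these 6 genes in limma lay between 0.448 and 0.988. The marker mean itself differed between the groups, at 6.33 in saline and 6.91 in METH 2 h rats. Entering it can therefore also take out part of a METH difference, and the part of cortical tissue in these values was not tested. In tissue RNA, fewer cells of a type and less RNA per cell cannot be told apart.

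**Figure D3:**
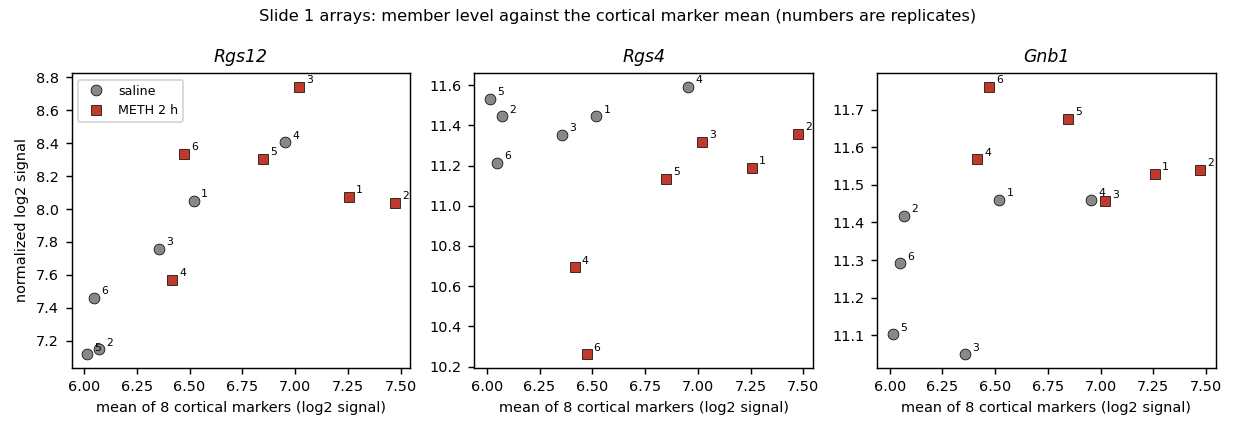
Log2 signal of Rgs12, Rgs4 and Gnb1 (vertical axes) against the mean log2 signal of 8 cortical excitatory neuron markers (horizontal axes) on the 12 arrays of slide 1, numbered by replicate. Saline arrays span 6.01 to 6.95 and METH 2 h arrays 6.42 to 7.47 on the horizontal axis, and the METH arrays 4 and 6, lowest for Rgs4, are at the low end of the METH range.

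The balance of signs at 2 h depended on the scaling, and the signs by family given above are those under quantile normalization. With quantile normalization 19 of the 26 differences were below 0 (73.1%), against 51% of all tested probes, and their median was -0.10 against -0.004. When arrays were scaled by their median over all 22523 probes, the median of the 10358 tested probes moved to 0.15. Only 5 of 26 were then below 0, so the signs by family cannot all hold there. In the deposited log2 values the median of all tested probes was 0.20 and 6 of 26 were below 0. After centring each array on its median over all probes, 6 were likewise below 0, with a median of all tested probes of 0.17. Single genes moved with it. With median scaling the 2 h differences were 0.53 for Gnb1, 0.56 for Gnaz, 0.40 for Rgs7, -0.20 for Rgs4 and -0.24 for Gng12, none past the adjusted threshold. Relative to the median of all tested probes, 17, 18 and 18 of 26 were lower under these 3 settings and 19 under quantile normalization.

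At 24 h the 26 transcripts lay closer to their controls than at 2 h, as did the tested probes as a whole. By the same limma test 0 of 26 passed and the lowest adjusted p was 0.998, against 0.0579% of all probes (6 of 10358), and 0 of 26 had an unadjusted p under 0.05, against 4.27% of all probes. Groups did not overlap for 0 of 26, against 0.174%. The differences ran from -0.36 to 0.16, with 14 of 26 below 0 (53.8%, against 50.6% of all probes). Their median absolute size was 0.0521, and that of all tested probes 0.0671, against 0.164 and 0.109 at 2 h. For 24 of the 26 the 95% interval lay within 0.5 log2 units of 0, and for all 26 within 1. At 2 h these counts were 10 and 25. They were not made over all tested probes. The median distance from a difference to the end of its interval was 0.34 at 2 h and 0.24 at 24 h, so that differences of the size of Gnb1 or Gnaz at 2 h are near the limit of what these arrays resolve even before adjustment.

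Gnb5 had the lowest p at 24 h. Its 6 saline arrays lay between 8.48 and 8.65 with a median of 8.52, and its METH 24 h arrays had 7.87, 8.40 and 8.72 as lowest, median and highest. The METH arrays were thus spread to both sides, 4 below and 1 above every saline array. The difference was -0.18 ± 0.10 (interval -0.39 to 0.02; unadjusted p = 0.08, limma adjusted p = 0.998). It was -0.35 on slide 2 and -0.02 on slide 3, and -0.10 over both slides without METH replicate 3.

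Gnai1 had the largest difference at 24 h, -0.36 ± 0.25 (unadjusted p = 0.161, limma adjusted p = 0.998). It was -0.36 on slide 2 and -0.35 on slide 3. The slide 2 value rested on METH replicate 3, at 5.01, which was not above background. The other METH arrays of slide 2 lay inside or above the range of that slide's saline arrays. The likeness of the slides therefore rests on a single array. The saline levels of Gnai1 were 6.12, 6.56 and 6.76 and its METH 24 h levels 5.01, 6.18 and 7.05. The METH arrays reached beyond the saline range on both sides, 3 below and 1 above. Without METH replicate 3, which holds the value of 5.01, the difference was -0.103, and without METH replicate 1, which holds the highest, it was -0.555. In the deposited log2 values it was -0.619. The same array gave 5.41 for Gna12, an alpha subunit of the 12/13 class, against 7.13 to 7.26 on the other 5 METH arrays and 6.27 to 7.69 in saline rats. Over all arrays the Gna12 difference was -0.02 ± 0.23.

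Gnao1, the alpha subunit most abundant in brain membranes, had saline levels of 11.12, 11.73 and 12.19 and METH 24 h levels of 11.39, 11.99 and 12.24, a difference of 0.16 ± 0.14 (unadjusted p = 0.254, limma adjusted p = 0.998). All but 1 METH array lay inside the saline range, and the Gnao1 difference ran from 0.06 without saline replicate 5, its lowest array, to 0.25 without METH replicate 1 and likewise 0.25 without saline replicate 3. It was 0.10 to 0.11 without METH replicate 2, 4 or 5. Rgs4 differed by -0.14 ± 0.12 (unadjusted p = 0.247), from saline levels of 10.40, 10.69 and 10.82 to METH 24 h levels of 10.20, 10.55 and 10.68. The Rgs4 difference was -0.37 on slide 2 and 0.09 on slide 3, and -0.07 over both without METH replicate 1. Rgs8, another R4 gene, had saline levels of 7.58, 7.83 and 8.08 and METH 24 h levels of 7.16, 7.77 and 8.04 (-0.11 ± 0.12, unadjusted p = 0.347), and the difference ran from -0.18 without saline replicate 4 to -0.01 without METH replicate 2, and was -0.17 without METH replicate 4 and -0.07 without saline replicate 6. Rgs10, known in brain chiefly from microglia, had saline levels of 9.45, 9.70 and 9.80 and METH 24 h levels of 9.68, 9.73 and 9.84 (0.09 ± 0.08, unadjusted p = 0.267), and the difference was 0.04 without saline replicate 2. On the same arrays, 6 of 9 microglia markers had an unadjusted p under 0.05 at 24 h, against 4.27% of all tested probes. Each was higher, and 0 passed after adjustment. The mean of the microglia markers ranged from 6.80 to 7.26 in saline and 7.07 to 7.77 in METH 24 h rats. Their part in the value of Rgs10 was not tested.

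**Figure D4:**
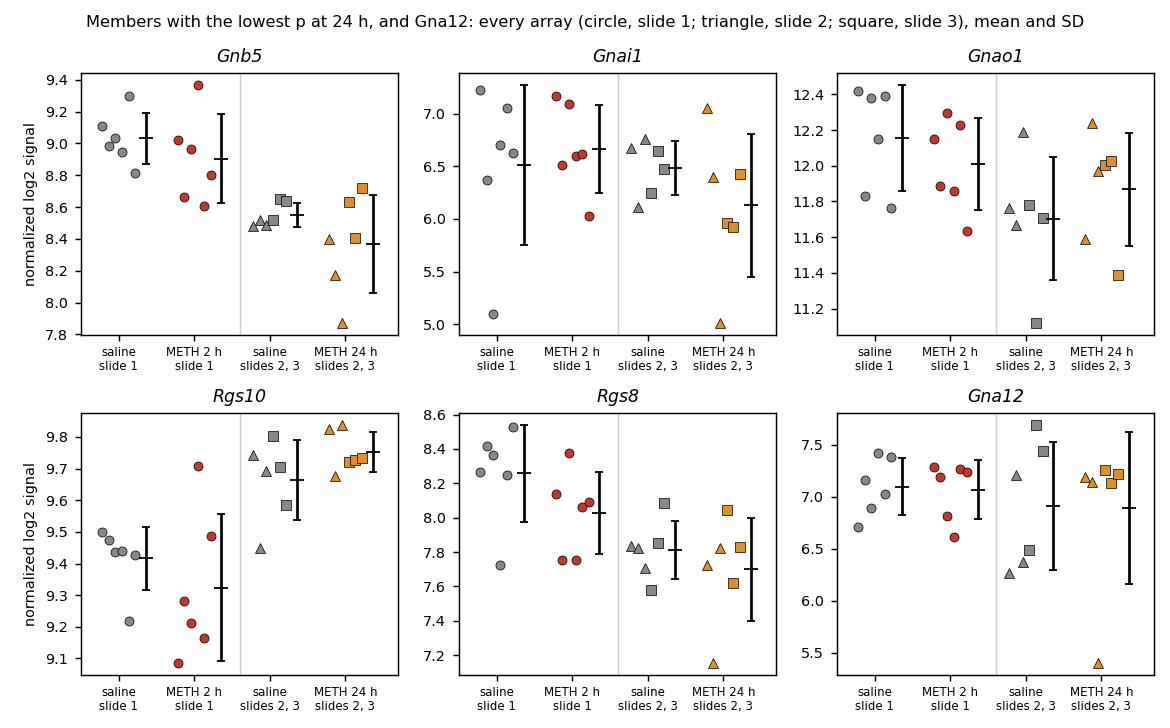
Normalized log2 signal (vertical axis) on every array, by group, for the 5 transcripts of lowest p at 24 h other than Rgs4, and for Gna12, with the mean and SD beside the points. Gnb5 and Gnai1 are more scattered in METH 24 h rats than in their saline rats, and a single METH 24 h array at 5.41 stands apart for Gna12.

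By family, the 24 h differences ran from -0.36 to 0.16 in the i/o class, from -0.18 to 0.09 in the beta subunits and from -0.14 to 0.02 in the R4 genes. The 3 R12 genes Rgs10, Rgs12 and Rgs14 were between 0.09 and 0.12, and the 4 gamma subunits between -0.02 and 0.11. Gnaq and Gna11 were at 0.09 and 0.02. Within the 26, 15 differed in sign between slide 2 and slide 3, 6 were below 0 on both slides and 5 above 0 on both. Gng7, for example, was at -0.33 on slide 2 and 0.28 on slide 3. These counts were not made over all tested probes, so no trait particular to the 26 can be read from them.

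**Figure D5:**
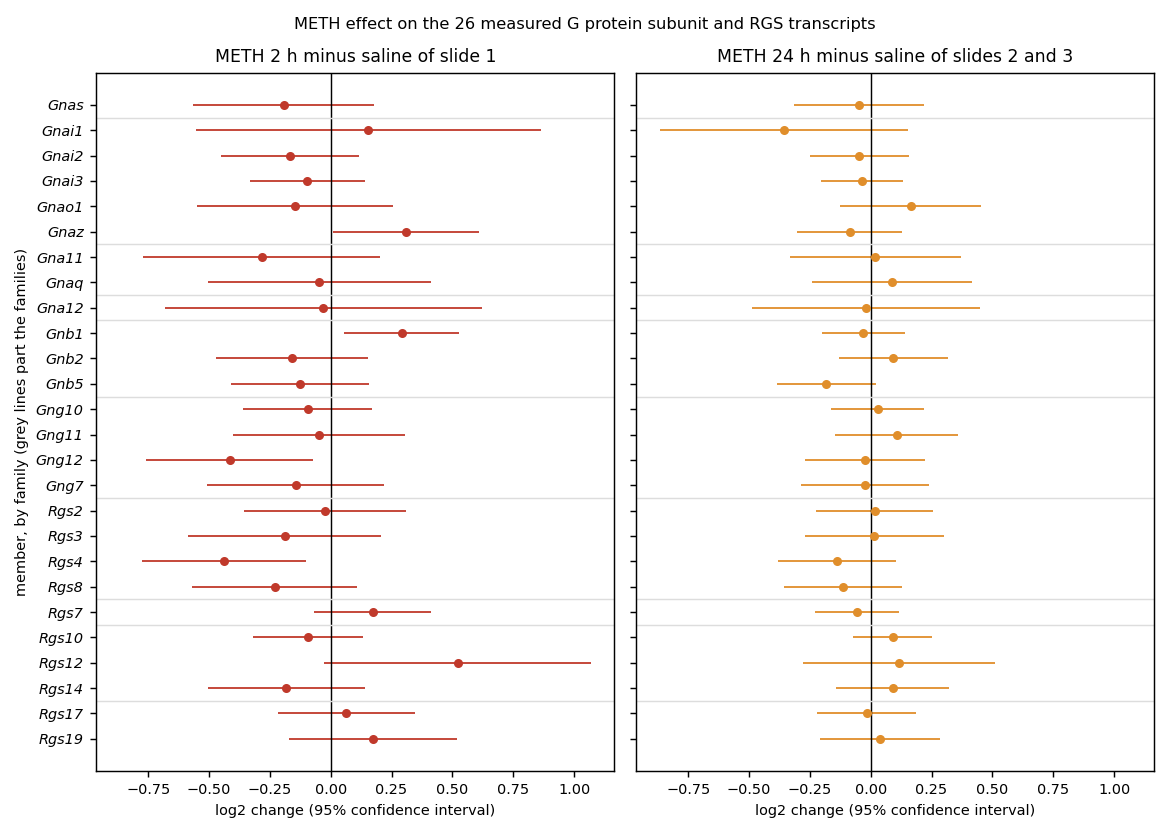
Log2 difference, METH minus saline, with its 95% confidence interval (horizontal axis) for each of the 26 measured transcripts, at 2 h (left) and 24 h (right), grouped by family. At 2 h the intervals of Gnaz, Gnb1, Gng12 and Rgs4 leave out 0, and at 24 h none does.

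The 24 h and 2 h effects were then compared with each other, as the difference of the differences. By limma 0 of 26 passed (lowest adjusted p 0.986), against 0% of all probes, and 2 of 26 (7.69%) had an unadjusted p under 0.05, against 4.94% of all probes. These were Gnb1, at -0.32 ± 0.14 (unadjusted p = 0.0311), and Gnaz, at -0.40 ± 0.18 (unadjusted p = 0.0368), whose 24 h differences were -0.03 and -0.09. At 24 h Gnb1 had saline levels of 11.60, 11.68 and 11.86 and METH levels of 11.46, 11.65 and 11.97, and Gnaz had 8.85, 9.00 and 9.21 and 8.62, 9.00 and 9.09, so that for both the medians of the groups nearly coincided. Between the times, the value of Gnb1 was -0.60 with median scaling. That of Gnaz was -0.69 with median scaling and -0.21 with the cortical marker mean as a covariate. Gng12 followed at 0.39 ± 0.21, Rgs7 at -0.23 ± 0.14, Rgs4 at 0.30 ± 0.20 and Rgs14 at 0.27 ± 0.19. Rgs14, an R12 protein that also binds Ras and Rap, had differences of -0.18 at 2 h and 0.09 at 24 h. Its levels were 8.38, 8.89 and 9.31 in saline and 8.53, 8.71 and 8.87 in METH rats at 2 h, and 7.79, 8.27 and 8.68 in saline and 8.10, 8.27 and 8.72 in METH rats at 24 h. At 2 h all METH arrays lay inside the saline range, and at 24 h all but 1. These values moved with the scaling, as did the median of all tested probes, at 0.002 with quantiles and -0.188 with median scaling. With median scaling the values of Rgs4, Gng12, Rgs7 and Rgs14 were 0.02, 0.20, -0.495 and -0.01, the last with its sign turned. That of Rgs4 was 0.15 without METH 2 h replicate 6, and that of Rgs7 was -0.12 with the cortical marker mean as a covariate. With quantile normalization 8 of 26 of these values were below 0 (30.8%), against 49.7% of all probes. With median scaling 19 were, with the deposited log2 values 18 and with these centred 16. Relative to the median of all tested probes the counts were 11, 9 and 9. The interval of the difference lay within 1 log2 unit of 0 for 24 of the 26.

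The striatal genes that the rule left out, and the partners of these proteins, did not pass either. Gnal, the olfactory-type alpha subunit through which D1 receptors signal in striatum, differed by -0.07 ± 0.20 at 2 h and 0.01 ± 0.14 at 24 h. Rgs9 differed by -0.32 ± 0.15 at 2 h (unadjusted p = 0.0464, limma adjusted p = 0.807) and by -0.12 ± 0.11 at 24 h. Striatal projection neuron markers, a list that includes Rgs9 and the dopamine receptors, were below 0 for 13 of 16 genes at 2 h, against 51% of all tested probes. Their median was -0.17, with 4 lower and 1 higher at an unadjusted p under 0.05 and 0 after adjustment. Of all tested probes, 6.09% had an unadjusted p under 0.05. The list was not computed under the other scalings, where the median of all tested probes was 0.15 to 0.20.

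Of the receptor kinases and arrestins, which end receptor signalling, 5 of the 9 genes on the array were tested, and 0 passed in any of the 3 comparisons. Grk2, the kinase that phosphorylates active receptors, differed by 0.44 ± 0.19 at 2 h (unadjusted p = 0.029) and Arrb2, an arrestin, by -0.38 ± 0.14 (unadjusted p = 0.0105). Of the other regulators of G proteins 14 of 19 were tested and 0 passed. At 2 h the lowest p were those of Snx13, a sorting nexin with an RGS domain, at 0.34 ± 0.16, and Rap1gap, which inactivates the small G protein Rap1, at -0.26 ± 0.14. Rasd1, a small G protein that modulates receptor signalling, differed by 0.29 ± 0.16 at 2 h and -0.25 ± 0.12 at 24 h (unadjusted p = 0.0408). Of the effectors 10 of 19 were tested, and 0 passed and 0 had an unadjusted p under 0.05 in any comparison. Of all tested probes, 6.09% had such a p at 2 h, 4.27% at 24 h and 4.94% in the difference between times. With so few effectors tested, a count of 0 is no trait of theirs. Of the striatal receptors 19 of 25 were tested and 0 passed. At 2 h Hrh3, a histamine receptor coupled to i/o subunits, differed by 0.41 ± 0.15 (unadjusted p = 0.0103), and Drd1 and Drd2, the dopamine receptors, by -0.38 ± 0.14 and -0.33 ± 0.15 (unadjusted p = 0.0107 and 0.0329).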

How the data were processed

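Dorsal striatal RNA was measured on 24 Illumina RatRef-12 arrays. The deposited intensity values are background-subtracted, with 26.4 to 31.7% below 0, and were not otherwise normalized, as the values show. The deposited detection scores, called detection p-values in the file header, read as 1 minus p, and their probe order does not match that of the intensities (rank correlation within an array -0.014 to -0.0049). The sorted scores were therefore assigned to the sorted intensities of each array, and 1 missing score was set to the array's median. The deposited log2 values were recomputed to within 2.17e-06 by raising intensities under 1 to 1, taking log2 and subtracting each probe's median within its set of 12 arrays (slide 1, or slides 2 and 3 together). Scanner software and settings are not given in the sources used here. Probe symbols come from the platform's annotation table (13752 of 13793 matched RefSeq).

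With R 4.3.3 and limma 3.58.1, intensities were corrected with normexp (negative controls inferred from detection p, offset 16) and quantile-normalized over all 24 arrays (neqc), and the test covered the 10358 probes whose detection p was below 0.05 on 6 or more arrays. A linear model with the 4 groups, slide 3 against slide 2, and weights of 0.719 for slide 1 and 1.39 for slides 2 and 3 (arrayWeights) was fitted with lmFit and eBayes. P-values were adjusted by Benjamini-Hochberg over all tested probes, with a threshold of 0.05. Correlations between arrays ran from 0.922 to 0.991 and 0 pairs were identical. Array levels (lowest, median, highest) are described for the 6 genes of lowest p in each comparison, for genes past the threshold and for genes whose groups do not overlap. In the other pathway lists the genes of lowest p are named. The genes described and the lists were chosen with earlier results of these data known. Alternatives covered weights, normalization, filter, covariates and arrays left out. The test was also run on data simulated with the residual SD of each probe. At 2 h, 8% of 1.25-fold, 52% of 1.5-fold and 94% of 2-fold changes passed the adjusted threshold. At 24 h these shares were 24%, 82% and 99%. Changes of the size described here can therefore often miss the threshold, most of all at 2 h. A later time point named in the design is not analysed here. Precision is set by the number of arrays.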

Additional observations from a re-analysis of the deposited data

Results flagged for a closer look

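A single array stood apart from the other 5 of its group for 8 of the 104 combinations of gene and group examined (26 genes in 4 groups), by Dixon's criterion for 6 samples (the gap to the nearest array divided by the range of the group). Chance alone puts about 1 in 20 groups past it. The criterion was not applied to all tested probes, so no trait particular to the 26 can be read from the count. The clearest case was Gna12 in METH 24 h rats, where replicate 3 was lowest at 5.406 and the nearest array was at 7.132. In the same group Gnb2 was highest on replicate 2 (6.924, nearest 6.628) and Gnai3 highest on replicate 6 (8.302, nearest 8.128). In METH 2 h rats Gnai2 was lowest on replicate 4, at 10.84, with the nearest array at 11.39. In the saline rats of slide 1, Rgs8 (7.724, nearest 8.249) and Rgs17 (6.216, nearest 6.876) were both lowest on replicate 4, the slide 1 array of lowest weight. Rgs10 was lowest on replicate 5 (9.219, nearest 9.427) and Rgs3 on replicate 1 (7.615, nearest 8.119).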

How the results depend on the processing

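The count of G protein subunit and RGS transcripts past the threshold was 0 in the 38 values obtained with another setting over the 3 comparisons and in the 48 obtained with one array left out. Of the named differences, 2 changed sign: Rgs12 at 2 h was -0.0164 with the cortical marker mean as a covariate, and Rgs14 in the difference between times was -0.00854 with median scaling in place of quantiles. The other 226 values with alternative settings and all 288 with one array left out kept their sign and missed the threshold. Over all tested probes the count past the threshold at 2 h was 3. It was 7 with equal weights, 1 in a separate fit of the 12 arrays, 0 in the deposited log2 values, 1 after centring these, 9 without saline replicate 4 and METH replicate 6, and 12 without METH replicates 4 and 6, and it ran from 1 to 4 with one array left out. At 24 h it was 6, and 5 to 7 with one array left out. For the difference it was 0, but 4 with a weight for each array and without either pair of arrays, and 0 to 4 with one array left out. Leaving out one array moved Gnai1 at 24 h between -0.555 and -0.103, Rgs4 at 2 h between -0.511 and -0.292 and Rgs8 at 24 h between -0.183 and -0.0102. No paired analysis was possible because the labels do not say which saline rat was yoked to which METH rat. The labels also give no replicate numbers, and those used here were assigned within each group in the order of the arrays. Signal over background limits Gnas and the 15 untested probes.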
